A study of Mus musculus with 4 samples.

Results

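Cytosolic ribosomes are built from ribosomal RNA and about equal numbers of copies of each ribosomal protein, and the proteins of the large subunit carry the prefix Rpl or Rplp while those of the small subunit carry Rps. Their mRNAs are short and abundant, and many begin with a 5′ terminal oligopyrimidine (TOP) tract, a C followed by a run of pyrimidines through which mTORC1 signalling controls their translation. Activated T cells enlarge and divide, and ribosome production is part of that growth. The genes described here were all protein-coding genes whose symbol in GENCODE mouse release M21 begins with Rpl or Rps and a digit, or is Rplp0, Rplp1 or Rplp2. The ribosomal S6 kinases (Rps6k), Rps19bp1 and symbols containing -ps were left out. The rule gave 84 of the 55450 genes in the authors' deposited table, 52 of the large and 32 of the small subunit, and 83 of them had a fold change. The exception, Rpl10l, is a testis-expressed copy of Rpl10 and was listed at 0. Among the 84 genes were 7 paralogues whose symbols end in l or l1.

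RNA was sequenced from 4 cultures of mouse Th17 cells, CD4 helper T cells that make IL-17. There were 2 sgAdarb1 cultures, given a retroviral PSIN vector with a CRISPR guide against Adarb1, and 2 empty-vector cultures given PSIN alone. Adarb1 encodes ADAR2, an enzyme that converts adenosine to inosine in double-stranded RNA. Cells of both groups carried a Cas9 transgene per the genotype tag, although the design text calls the donors wild type, and came from mice aged 8 to 12 weeks. In both groups naive CD4 T cells were stimulated through CD3 (antibody at 0.25 µg/mL) and CD28 (antibody at 1 µg/mL) for 24 h and transduced. TGF-β (0.3 ng/mL) with IL-6 (20 ng/mL) then polarized them over 72 h. Each of the 2 donors gave a culture of each group, per the design text. The treatment tag contradicts the title in 2 of the 4 samples: it calls both samples of replicate 1 empty vector and both of replicate 2 sgAdarb1. The titles are followed here, and the 4 libraries could not be tied to either label, so a difference between groups and one between replicates cannot be told apart by these files. The authors' deposited table gives 1 log2 fold change per gene with its standard error (SE). Its numerator is not named. Fold changes are written as sgAdarb1 over empty vector, following the order in which the design text names them, and every sign turns if the authors used the other order. No values per culture were used, so none are given.

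Adarb1 itself was not lower: its log2 fold change was 0.11 ± 0.12 (interval -0.13 to 0.35; DESeq2 adjusted p = 1.00) at a mean normalized count of 2130, from the authors' deposited table. Cas9 cuts can leave mRNA abundance as it was, so this value neither shows the targeting nor tells which libraries hold the guide. In the authors' deposited table the T cell genes Cd3e, Cd3d, Cd4 and Trac had mean normalized counts from 2463 to 15286 and log2 fold changes from 0.06 to 0.12. The Th17 cytokine genes Il17a, Il17f and Il22 had means of 1756, 3739 and 4826 and log2 fold changes of 0.70 ± 0.15 (unadjusted p = 2.9e-06), 1.11 ± 0.53 (p = 0.0383) and 0.39 ± 0.34, from the authors' deposited table, larger than that of any ribosomal protein gene with a mean of at least 1000. Not every Th17 marker was higher: of 5 looked at, 4 had a log2 fold change above 0 and 1 lay below, at -0.19. Markers of other cells had lower means in the authors' deposited table: 129 and 177 for the B cell genes Cd79a and Ms4a1, 218 and 287 for Cd8b1 and Cd8a, and at most 28.7 for the myeloid genes Lyz2, Csf1r and Itgam and the mast cell genes Cpa3, Cma1 and Mcpt4. The mast cell genes Cpa3 and Cma1 were at -5.66 ± 1.26 (unadjusted p = 7.23e-06, DESeq2 adjusted p = 0.0709) and -4.70 ± 1.98 (p = 0.0177) in the authors' deposited table. Mcpt4, the myeloid genes (all 3 positive) and both B cell genes (negative) had SEs from 0.51 to 4.93 and unadjusted p above 0.3. The part of these markers in the values below was not tested. In such bulk samples, fewer cells of a type and less RNA per cell cannot be told apart.

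The first bases of a few of the mRNAs are shown because the TOP tract is the sequence feature these genes are known for. A tract was sought in RefSeq's starts on GRCm38.p6, the mm10 build, as a C followed by at least 4 bases that are each C or T, on the sense strand only. Each line below gives 50 bases, the last 25 before the annotated start and the first 25 from it on, with 1 such tract in capitals. The letters of the tract are read from the C nearest the annotated start, at most 5 bases to either side, so that pyrimidines further upstream stay in lower case.
Rplp2, chr7:141447626-141447675, plus strand: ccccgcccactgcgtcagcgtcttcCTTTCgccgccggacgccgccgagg
Rps6, chr4:86857343-86857392, minus strand: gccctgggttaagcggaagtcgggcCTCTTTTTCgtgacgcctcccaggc
Rps27, chr3:90213624-90213673, minus strand: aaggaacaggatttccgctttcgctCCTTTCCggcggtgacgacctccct
Rps27l, chr9:66946061-66946110, plus strand: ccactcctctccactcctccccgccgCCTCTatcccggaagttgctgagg
Rpl22l1, chr3:28805483-28805532, plus strand: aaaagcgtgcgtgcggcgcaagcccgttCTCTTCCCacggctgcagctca
Rpl41, chr10:128549144-128549193, minus strand: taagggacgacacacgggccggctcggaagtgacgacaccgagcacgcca
Rpl4, chr9:64173362-64173411, plus strand: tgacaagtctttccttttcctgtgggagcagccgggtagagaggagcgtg

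Read from the annotated first base on, the mRNAs of Rplp2, Rps6 and Rps27 opened with the tract, and in all 3 the genomic run of pyrimidines went on upstream of that base. In the paralogues Rps27l and Rpl22l1 the C nearest the start lay 1 and 3 bases after it. In Rpl41 and Rpl4 no tract began within 5 bases of the annotated start, though the Rpl4 line holds a pyrimidine run further upstream. Sequences were matched for 64 of the 84 genes, and 14 of them, or 21.9%, had the tract at the first base, against 3.01% of all 27025 genes with a sequence. Starting within 5 bases of any annotated start of the gene, it was found in 30 of the 64 genes, or 46.9%, against 21.2% of all genes and 24.96% of the other protein-coding genes with a mean normalized count of at least 1000. By subunit, 17 of 40 large and 13 of 24 small subunit genes had it there. Annotated starts can lie some bases from the start used in these cells, so a missing tract says only that the letters are not at that place. Among genes with a mean of at least 1000, the median log2 fold change was 0.08 both in the 26 with the tract near the start and in the 29 without it.

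Ribosomal protein mRNAs were abundant in the cultures. From the authors' deposited table, the 83 genes together took 5.27% of all mean normalized counts, where a mean normalized count is the mean over the 4 libraries of reads divided by a library's size factor. Of the 83, 75 had a mean of at least 1000. Per kilobase of the shortest principal mRNA in the annotation, these 75 had a median of 14636 normalized counts, with a range from 1326 to 53590. Over the 3635 protein-coding genes with a mean of at least 1000, members among them, the median was 647 per kilobase. At the top were proteins of the stalk that recruits the elongation factors: Rplp2 with 53590 and Rplp1 with 51250 normalized counts per kilobase. Rpl26, a protein near the exit of the peptide tunnel, followed with 50413, Rpl41, the smallest ribosomal protein, with 42647, and Rplp0, the base of the stalk, with 33526 per kilobase. The order among these 5 rests on annotated mRNA lengths and has no error attached. Level did not separate the subunits, with medians of 15042 for the large and 14636 for the small subunit among genes with a mean of at least 1000.

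Some members had few counts. Rps10, a core protein of the small subunit, and Rpl24, a core protein of the large subunit, averaged only 72.0 and 63.0 normalized counts, as the authors' deposited table gives them. In the M21 annotation 475 exonic bases of Rps10, or 20.6%, are shared with the readthrough gene RPS10-NUDT3 on the same strand, and 484 bases of Rpl24, or 47.0%, with Gm28037. The 2 other members that share over 20% of their exons with another gene on the same strand were Rpl13a, with 29.4% shared with Gm45713 and a mean of 1389, and the paralogue Rpl36al, with 24.5% shared with Gm49383 and a mean of 33.1 (both means from the authors' deposited table). All 4 overlapping genes were listed at 0. The sources used here do not say how reads in shared exons were counted, and the part of this in these low values was not tested. Near-identical copies can take or give reads too. Of 292 annotated pseudogenes named after ribosomal proteins, 210 had a fold change, and the means in the authors' deposited table summed to 2958 over these, as compared with 932762 over the 83 ribosomal protein genes. The most abundant was Rps6-ps4 with a mean of 422. Rps10-ps2 had a mean of 75.8, against 72.0 for Rps10 itself. The part of such copies in the low counts was not tested.

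Differences between sgAdarb1 and empty-vector cultures were small and mostly on one side. A total of 78 of 83 ribosomal protein genes, or 94.0%, had a log2 fold change above 0 in the authors' deposited table, and 5 lay below. The share above 0 was 50.9% of all 29383 genes with a fold change, and 49.2% of the 3664 with a mean of at least 1000. The median over the 83 genes was 0.08 on the log2 scale, an estimated 1.06-fold difference, against 0.00 over all genes. None of the 83 passed the threshold, an adjusted p below 0.05 by DESeq2 in the authors' deposited table, and none had an unadjusted p below 0.05. Over the whole table the adjusted threshold was passed by 0 of 29383 genes (0%), and 61, or 0.208%, had an unadjusted p below 0.05. The 95% interval, computed from the deposited SE as for a normal distribution, spanned 0 for all 83.

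**Figure D1:**
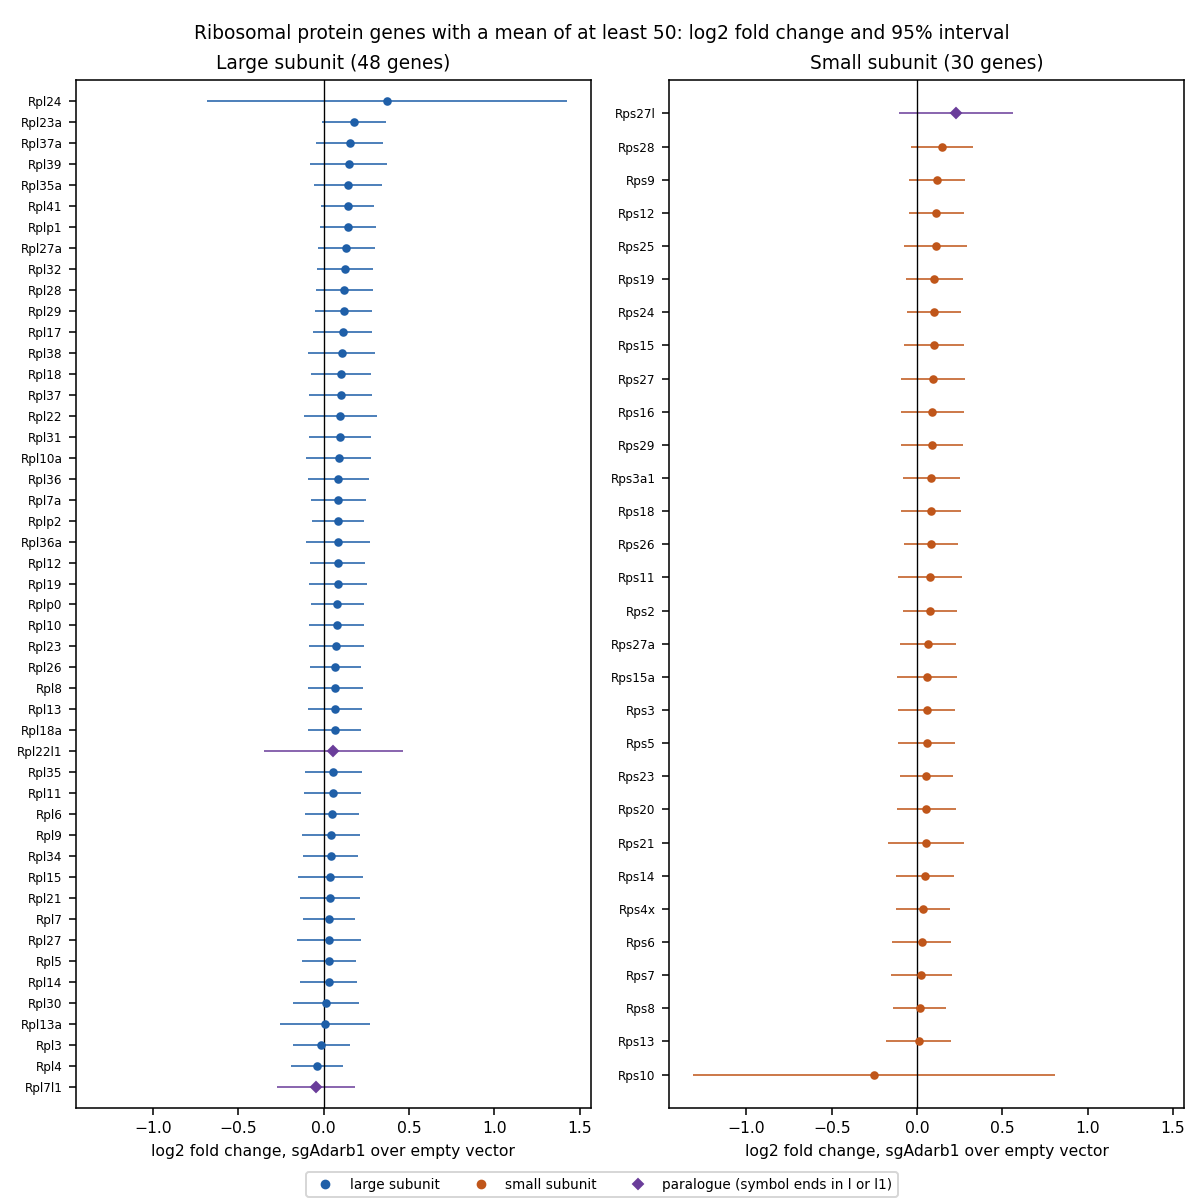
Log2 fold change of 78 of the 79 ribosomal protein genes with a mean normalized count of at least 50, large subunit on the left and small on the right; points are the deposited values, bars their 95% intervals, and diamonds the paralogues. All intervals cross 0, and 74 of the 78 points lie above it, as do 51.9% of all genes at that level.

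The intervals were narrow for most members. For 76 of the 83 the whole 95% interval lay between log2 values of -0.5 and 0.5, as it did for 19.7% of all genes and 97.8% of those with a mean of at least 1000. Over the 75 ribosomal protein genes at that level the ends of the intervals reached at most -0.28 and 0.37. These 75 differed little from each other: the SD of their log2 fold changes was 0.044, less than the median SE of 0.086 of 1 gene. At that SE, a log2 fold change of 0.17 would have been needed for an unadjusted p of 0.05, and 0.41 for a gene to pass alone after adjustment over all genes. The genes were measured in the same 4 libraries, so their agreement in sign is not that of independent measurements, and no test was made over them.

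The 2 subunits had nearly the same values. Large subunit genes had a median log2 fold change of 0.08 (47 of 51 above 0) and small subunit genes one of 0.08 (31 of 32 above 0), from the authors' deposited table. The difference of the medians was 0.0058 on the log2 scale, much smaller than the SE of any member. Among genes with a mean of at least 1000, the middle part of the values, from the 25th to the 75th percentile, ran from 0.04 to 0.10 in the 46 large and from 0.05 to 0.10 in the 29 small subunit genes. All 29 of the small subunit genes at that level were above 0, and 3 of the 46 large ones, Rpl7l1, Rpl4 and Rpl3, below.

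**Figure D2:**
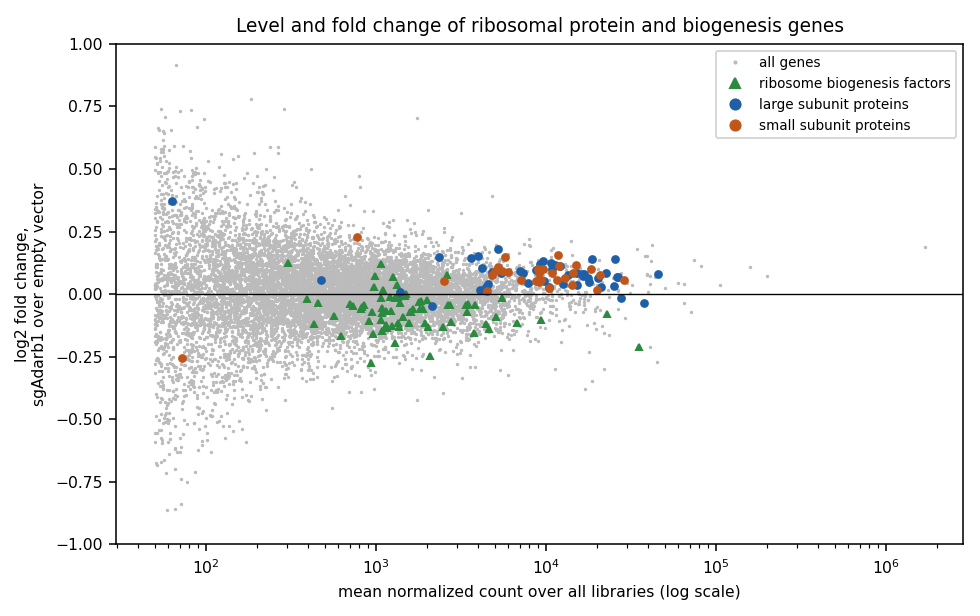
Mean normalized count (log scale) against log2 fold change for the 10680 genes of mean 50 or more, with ribosomal proteins of the large and small subunit and ribosome biogenesis factors marked; 10 genes lie beyond the vertical axis. Ribosomal proteins sit to the right and mostly above 0, and biogenesis factors mostly below 0.

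Among the large subunit genes, Rpl23a had the smallest unadjusted p of all members. It encodes a protein at the tunnel exit where the signal recognition particle docks, and lies on chromosome 11, 78180932 to 78183584 (mm10). Its log2 fold change was 0.18 ± 0.10 (SE) (p = 0.0596, unadjusted) in the authors' deposited table, and its interval ran from -0.01 to 0.37. On the opposite strand, Tlcd1 overlaps 59.7% of the exonic bases of Rpl23a, and had a mean of 137, while Rpl23a had one of 5231 (from the authors' deposited table). Without a stated strand setting, reads of such a pair cannot be told apart. Genes on the opposite strand also cover over 20% of the exons of Rpl35, Rpl31, Rpl5 and Rpl30. Rpl41 was at 0.14 ± 0.08 (p = 0.0749) and Rpl27a at 0.13 ± 0.09 (p = 0.123) in the authors' deposited table. High values without a small p were those of Rpl37a at 0.15 ± 0.10 and of Rpl39, a protein lining the peptide tunnel, at 0.15 ± 0.11 in the authors' deposited table.

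The 3 stalk genes were all above 0. Rplp1 was at 0.14 ± 0.08 (unadjusted p = 0.0954) in the authors' deposited table. Rplp0 and Rplp2 were both at 0.08 ± 0.08 there. The 3 intervals overlapped, and no difference among the stalk genes was tested. Rpl5 and Rpl11, which with 5S ribosomal RNA form the particle that can bind the p53 regulator Mdm2, were at 0.03 ± 0.08 and 0.05 ± 0.09 in the authors' deposited table. Rpl10, a late-joining protein needed for the subunits to combine, was at 0.08 ± 0.08 there, and Rpl38, known from mice for its role in the translation of Hox mRNAs, at 0.11 ± 0.10. Rpl8, a protein close to the catalytic centre, was at 0.07 ± 0.08 and Rpl26 at 0.07 ± 0.08 in the authors' deposited table.

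Among core members with a mean of at least 1000, only Rpl4 and Rpl3, those of the longest coding sequence, lay below 0. From the authors' deposited table, Rpl4, which reaches into the peptide tunnel, was at -0.04 ± 0.08 (mean 37945), and Rpl3, which lies close to the catalytic centre, at -0.01 ± 0.09 (mean 27526). Rpl13a, known from human monocytes as part of a complex that silences inflammatory mRNAs, was at 0.01 ± 0.14 there. Rpl24, with few counts, had the highest value of members with a mean of at least 50, at 0.37 ± 0.54 in the authors' deposited table, and its interval from -0.69 to 1.43 holds the values of all well-counted members.

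Among the small subunit genes, Rps28 had the smallest unadjusted p, at 0.15 ± 0.09 (p = 0.116) in the authors' deposited table. Rps19 and Rps24, both mutated in human Diamond-Blackfan anaemia, were at 0.10 ± 0.09 and 0.10 ± 0.08 there. Rps6, which is phosphorylated by the S6 kinases downstream of mTORC1, was at 0.03 ± 0.09, and Rps3, which lines the path by which mRNA enters, at 0.06 ± 0.09, in the authors' deposited table. Rps27a, made as a fusion with ubiquitin, was at 0.06 ± 0.08 there. Rps13 was lowest of the well-counted small subunit genes at 0.01 ± 0.10. Rps10 lay below 0 at -0.25 ± 0.54 in the authors' deposited table, with an interval from -1.31 to 0.81 that says little at its low count. Rps27rt was at 0.07 ± 0.85 there, from a mean of 24.9.

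The paralogues had far fewer counts than their parent genes. Per kilobase, Rps27l reached 1546 normalized counts against 14549 for Rps27, or 10.6%, and Rpl7l1 1642 against 21515 for Rpl7, or 7.63%. Rpl22l1 reached 865 against 18569 for Rpl22, or 4.66%. The other 3 with counts were lower still: Rpl36al at 0.557% of Rpl36a, Rpl39l, best known from testis, at 0.140% of Rpl39, and Rpl3l, known from heart and skeletal muscle, at 0.0142% of Rpl3. As Rpl36al shares 24.5% of its exons with Gm49383, its mRNA level cannot be read from its count alone. Rpl39l and Rpl3l had means of only 2.96 and 3.97 normalized counts in the authors' deposited table, so their log2 fold changes of 0.09 ± 2.33 and 1.41 ± 2.10 carry no information on direction.

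**Figure D3:**
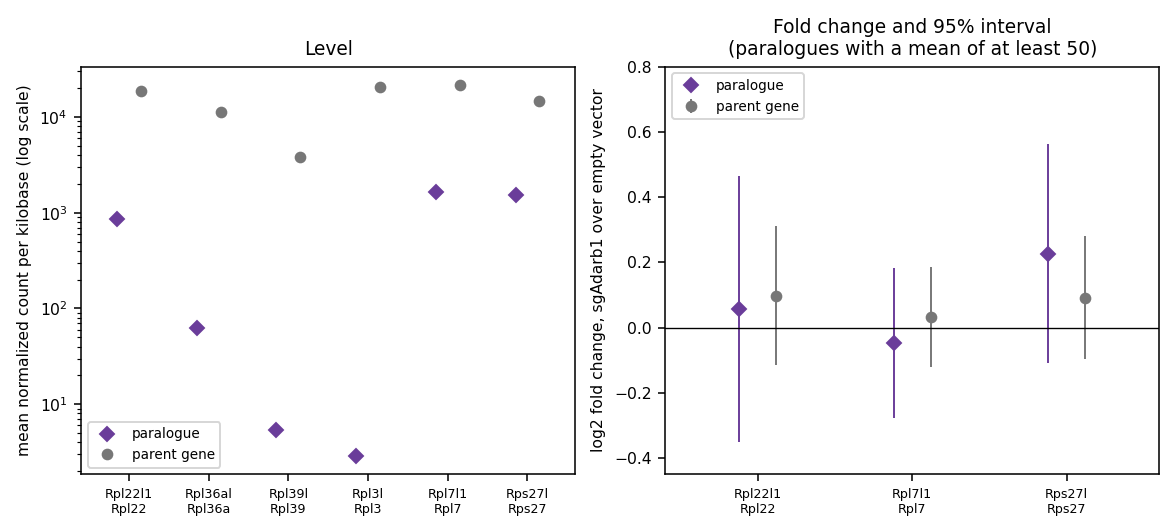
Left, mean normalized count per kilobase (log scale) of 6 paralogues, each beside its parent gene; right, log2 fold change with 95% interval for the 3 paralogues with a mean of at least 50 and their parents. Each paralogue lies below its parent in level, and in fold change the intervals of each pair overlap.

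Fold changes of paralogue and parent could not be told apart. Rps27l, known as a p53 target in human cells, was at 0.23 ± 0.17 (mean 771), against 0.09 ± 0.10 for its parent Rps27, in the authors' deposited table. The difference between them was 0.14, with a 95% interval from -0.25 to 0.52 if the deposited errors are treated as independent. Rpl22l1 was at 0.06 ± 0.21, against 0.10 ± 0.11 for Rpl22, whose loss blocks the development of αβ T cells in mice, in the authors' deposited table. The difference was -0.04 (interval -0.50 to 0.42). Rpl7l1 was at -0.05 ± 0.12, against 0.03 ± 0.08 for Rpl7, in the authors' deposited table, a difference of -0.08 (interval -0.35 to 0.20). Rpl36al was at -0.05 ± 0.74, against 0.08 ± 0.10 for Rpl36a, in the authors' deposited table. The 6 paralogues were split 4 above and 2 below 0, and without those of a mean below 10 they were split 2 to 2. The parent genes were above 0 except Rpl3.

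Length went with the fold change among the members. Across the 75 members whose mean reached 1000, Spearman's rho between coding length and log2 fold change was -0.51, and -0.49 with mRNA length. These genes share libraries and are not independent replicates, so the value is a description. It was -0.59 over the 46 large and -0.40 over the 29 small subunit genes for coding length. With the trend on exonic GC content and length over all genes removed, it was -0.42 over the 75 for coding length but only -0.26 for mRNA length, and for mRNA length -0.38 over the large and -0.07 over the small subunit genes. Rpl41 has the shortest coding length, at 78 bases, and Rpl4 the longest, at 1260. Over the 3560 other protein-coding genes with a mean of at least 1000 the same measure was -0.25, and there log2 fold change also went with the GC content of the exons (rho 0.44), as it did only weakly among the ribosomal proteins (0.16).

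**Figure D4:**
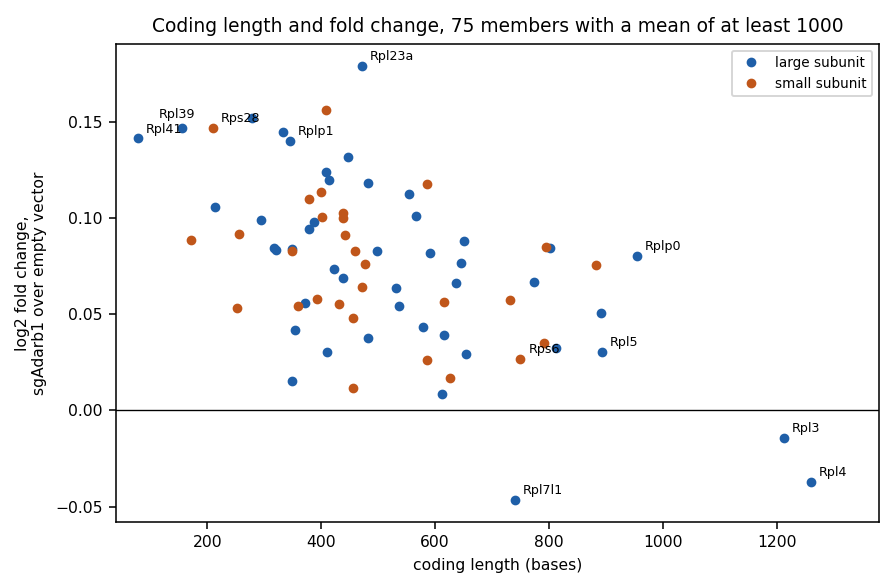
Coding length in bases against log2 fold change for the 75 ribosomal protein genes with a mean of at least 1000, coloured by subunit, with some genes named. Of the short genes, Rpl41 and Rps28 lie near 0.15, while others such as Rps27 and Rpl38 lie lower, at 0.09 and 0.11. The longest, Rpl3 and Rpl4, lie just below 0.

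Other genes with short mRNAs also had medians above 0, but a smaller share of them lay above 0. These others were also measured less precisely. Under 600 bases their median SE was 0.13, against 0.09 for ribosomal protein genes, and their median mean normalized count 1528, against 7384. The part of this in the shares was not tested. With an mRNA under 600 bases, 27 ribosomal protein genes had a median log2 fold change of 0.10 (27 of 27 above 0), and 42 other protein-coding genes with a mean of at least 1000 one of 0.08 (33 of 42 above 0). From 600 to below 900 bases the medians were 0.07 over 25 ribosomal protein genes (25 of 25 above 0) and 0.06 over 95 others (73 of 95 above 0). From 900 to below 1600 bases they were 0.06 over 19 ribosomal protein genes (16 of 19 above 0) and 0.02 over 337 others (204 of 337 above 0). The bands were chosen after the values were seen, and no test of their differences was made. Among the others were Fau, under 600 bases, and Rpsa, from 900 to below 1600 bases. Both are ribosomal proteins that the symbol rule does not match, and both lay above 0. A smooth trend of log2 fold change on exonic GC content and length was fitted over all 14547 genes of mean 10 or more. With it removed, 69 of 81 ribosomal protein genes were above 0 with a median of 0.05, against 51.4% of all these genes and a median of 0.00. Over the 3560 other protein-coding genes the removal took rho with exonic GC content from 0.44 to -0.02. Among the 75 ribosomal protein genes whose mean reached 1000 it went from 0.16 to -0.46, a relation of the opposite sign. The part of this turn in the lower median was not tested. Nor was the part of fragment length or RNA quality in the fold changes.

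Other genes of the ribosome and of its production were set beside the members. Ribosomal proteins whose symbols the rule does not match lay on the same side: Rpsa, Fau and Rack1 were at 0.04 ± 0.08, 0.12 ± 0.09 and 0.08 ± 0.08 in the authors' deposited table. Other mRNAs with a TOP tract, mostly translation factors, were above 0 in 15 of 17 with a median of 0.03, from Nap1l1, a histone chaperone, at -0.06 ± 0.08 and Hnrnpa1, a splicing factor, at -0.05 ± 0.09 to Eef2, the elongation factor that moves the ribosome, at 0.11 ± 0.07 and Eif3f, an initiation factor subunit, at 0.14 ± 0.10 in the authors' deposited table.

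**Figure D5:**
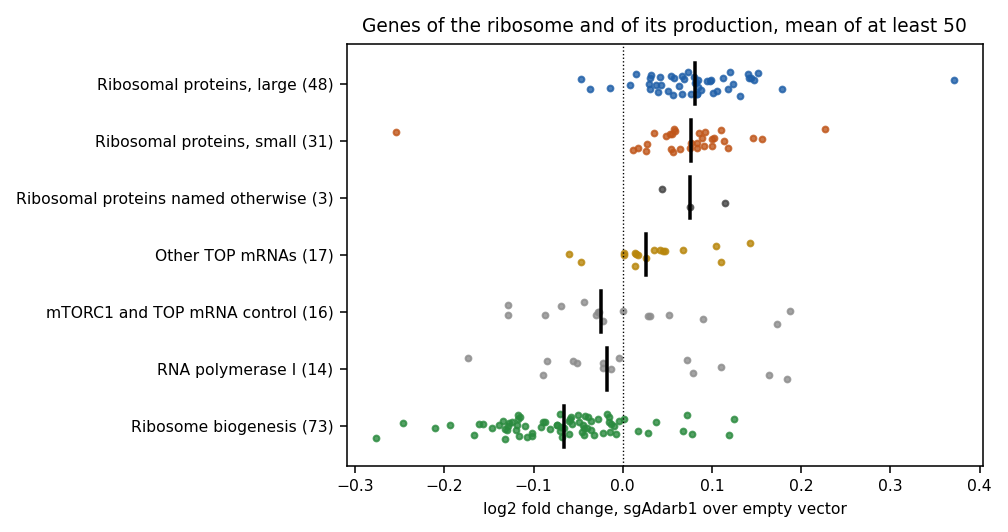
Log2 fold changes of single genes (points) with the median of each list (bar) for ribosomal proteins of the large and small subunit, 3 ribosomal proteins with other symbols, other TOP mRNAs, mTORC1 and TOP control genes, RNA polymerase I genes and ribosome biogenesis factors, all with a mean of at least 50. Medians of the ribosomal proteins are near 0.08 and that of the biogenesis factors is -0.07.

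Ribosome biogenesis factors, which process ribosomal RNA and assemble the subunits, lay on the other side of 0 from the proteins they assemble. Of 73 factors 64 were below 0 and 9 above, with a median of -0.07 and 0 past the adjusted threshold, in the authors' deposited table. With the GC and length trend removed 14 of 73 were above 0 and the median was -0.07. The median of the factors' mean normalized counts was 1343. Where the mean reached 1000, 48 of 3664 genes had an unadjusted p below 0.05, and where it reached 50, 0.552% did. Among the 73 factors there were 2, and no test of these shares was made. These were Ncl, the nucleolar protein nucleolin, at -0.21 ± 0.10 (p = 0.0305), and Dkc1, the pseudouridine synthase of small nucleolar RNPs, at -0.25 ± 0.12 (p = 0.0422), in the authors' deposited table. The lowest factor was Rsl24d1, which holds the place of Rpl24 in the assembling large subunit, at -0.28 ± 0.17, and the highest were Sbds and Nle1 at 0.12 ± 0.15 and 0.12 ± 0.25, in the authors' deposited table. Genes of RNA polymerase I, which transcribes ribosomal RNA, were split 5 above and 9 below 0 (median -0.02), from Cd3eap at -0.17 ± 0.23 and Twistnb at -0.09 ± 0.16 to Polr1c at 0.16 ± 0.18 and Taf1a at 0.18 ± 0.37 in the authors' deposited table. Genes of mTORC1 and of TOP mRNA control were split 7 above and 9 below 0 (median -0.02), with Larp1, which binds TOP tracts, at -0.07 ± 0.08 and Eif4ebp1, a repressor of cap-dependent translation, at 0.19 ± 0.16 in the authors' deposited table.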

How the data were processed

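Libraries of 4 Th17 cultures were made from ribosome-depleted RNA (KAPA kit, 8 cycles of PCR) and read on a NovaSeq, per the labels' protocols. Tools named in the submitters' processing notes are featureCounts, STAR 2.6.1a and DESeq2 1.18.1, and the build is mm10. The model formula and the strand setting are not given. The authors deposited for each gene a mean signal (the mean normalized count), a log2 fold change with its SE, a Wald score, a p-value and its adjusted p-value, per the file headers. The Wald score equalled the ratio of fold change to SE, and the adjusted p-value one by Benjamini and Hochberg over the 29383 genes that have a fold change. Another 4 columns of values per library had names that match no sample label and were not used, so depths per library are not given.

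All 55450 identifiers matched GENCODE M21, which gave symbols, types, positions, lengths and GC content. Levels were divided by the length of the shortest principal coding transcript; for Rps20, Rps3 and Rpl5 this is long (3706, 1908 and 2045 bases). The GC and length trend was a cubic spline with 3 knots for each, weighted by the inverse square of the SE, and the fit was tested on simulated data (Python 3.11.15, numpy 2.4.6). No gene-set test was made. A few genes, and the results that need them, are not reported here. The members and lists were chosen with earlier results of these data known. Named genes were the paralogues and their parents and 15 genes fixed by role. Named too were the 6 highest in level per kilobase, highest and lowest in fold change (mean of at least 50) and smallest in p. Beside them stand Rps27rt, the stated extremes of lists, Ncl for its p, and Larp1, which is not an extreme of its list. With 2 cultures per group from 2 donors, p-values speak only for these cultures. An unadjusted p below 0.05 was found for 61 of 29383 genes, fewer than that threshold lets through when no gene differs. The deposited SEs may therefore be wide.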

Additional observations from a re-analysis of the deposited data

How the results depend on the processing

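No paired analysis was possible because no library's values could be tied to a sample, and for the same reason omission of a culture and an edgeR fit with TMM were not run. At an adjusted p below 0.1, or with the adjustment over the 14547 or 10680 genes whose mean reached 10 or 50, still 0 ribosomal protein genes passed (smallest adjusted p 1.00 in both). The share above 0 ran from 69 of 81 (trend removed) to 76 of 79 (without the 4 genes overlapped by readthrough genes). The median log2 fold change ran from 0.05 to 0.08. Settings were minimum means of 10, 50 and 1000, and lists without paralogues or without those 4 genes. Values were also centred on the median of genes of mean 10 or more, or had the trend on GC and length removed. The minimum of 1000, the omission of the 4 genes and the use of coding length were chosen after the data were seen. The difference of large and small subunit medians, 0.0058, was -0.0082 with the trend removed, and neither value has an error. Paralogues above 0 numbered 4 of 6, but 2 of 4 at a minimum mean of 10, 2 of 3 at 50 and 2 of 4 with the trend removed, since the least abundant drop out. Of 35 genes tested under the naming rule, 33 kept their sign with the trend removed, while Rpl13a turned to -0.0302 and Rps6 to -0.0310, and no sign was called. The trend was that of all genes. Its removal took rho with exonic GC content from 0.16 to -0.46 among the 75 members whose mean reached 1000. The part of this in the turned signs was not tested. The deposited SE, not a depth, sets what was detectable here.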
